A study of Homo sapiens with 24 samples.

Results

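The mitochondrial chromosome (chrM) contributed 46 of the 175946 annotated rows in the small RNA table and 46 of the 175946 feature windows in the ATAC table. Members were all rows whose chromosome field was chrM, and no measured value entered that choice. They comprised 22 tRNA genes, 2 rRNA genes and 22 other annotated RNAs. Of the 22 others, 19 were of lncRNA type, 1 was of microRNA type, 1 was an antisense RNA and 1 was a large-subunit rRNA entry lying inside the 16S gene. With the flanking windows that the ATAC table also lists, chrM held 188 of 1231278 ATAC windows. All 46 rows passed the filter on low counts in both assays.

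HEK293, a human embryonic kidney cell line, overexpressed eGFP (the control, called GFP here), lamin A (LMNA), lamin B1 (LMNB1) or lamin B2 (LMNB2). Lamins form the fibrous meshwork beneath the inner nuclear membrane. Each of the 4 groups had 3 replicates for small RNA-seq and 3 for ATAC-seq, and the cells of all groups carried the same label, wild type. The labels name neither the expression vector nor its promoter, nor the time between delivery and harvest, and do not say whether replicates were separate cultures, so p-values measure only the spread between these libraries. Small RNA was sequenced from RNA enriched for small species, and ATAC-seq, which reads DNA that a transposase can reach, started from 100000 cells. Small RNA libraries held 132.5 to 195.1 M counts (M for 1e6) and ATAC libraries 156.0 to 290.2 M over feature windows. In small RNA the GFP libraries spread most: GFP replicates 1 and 3 had the lowest and the highest scaling factor of the 12 libraries (0.63 and 1.31), and GFP replicate 3 also had the highest chrM share. Results that change without either of them are given both ways or as a range over left-out libraries.

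Human mitochondrial DNA is a small circle present in many copies per cell and is not packaged in nucleosomes, which is why ATAC-seq libraries commonly contain much of it. Both of its strands are transcribed into long polycistronic RNAs, and tRNAs that punctuate the rRNA and protein-coding genes are cut out at their ends to release the neighbouring transcripts. The 12S rRNA (MT-RNR1) and 16S rRNA (MT-RNR2) build the mitochondrial ribosome, and the 22 tRNAs decode the messages for respiratory chain proteins. Of these tRNAs, 14 are encoded in the heavy-strand transcript and 8 in the light-strand transcript.

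The intervals set how the counts can be read. All 24 tRNA and rRNA intervals equalled the RefSeq gene of GRCh38 plus 25 bases on each side, and each ATAC window was a further 125 bases wider on both sides. Because mitochondrial genes abut, 14 neighbouring gene pairs shared 19 to 53 bases of small RNA interval and 269 to 303 bases of ATAC window. The counts show that reads were assigned to more than one row. MT-RNR2 minus the inner large-subunit entry (chrM:1717-3153) equalled 0.981 to 0.994 of the summed counts of its neighbours MT-TV and MT-TL1 in every library, so its ends, shared with those tRNAs, made up 22.3% to 40.8% of the MT-RNR2 count. MT-TH and MT-TL2, which flank MT-TS2 and share no base with each other, together exceeded all the counts available between 10976 and 13156, so at least 16.3% to 52.7% of the MT-TS2 count was also counted for both of them. MT-TE, which is encoded on the opposite strand, accounted for 90.2% to 97.9% of the count of a plus-strand lncRNA row that contains it (chrM:12874-14770). That row was never below MT-TE in 12 of 12 libraries, so strand did not separate these counts. Neighbouring and nested rows are therefore not independent measurements.

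Levels of the tRNA intervals spanned a wide range in small RNA, and the order below is given as CPM (counts per 1e6 counts of the library) per kb of interval, with the SD over the 12 libraries. MT-TE, the glutamate tRNA, had the highest level at 3643 ± 1588 CPM per kb. MT-TS2, one of the serine tRNAs, followed at 2672 ± 674, then the histidine tRNA MT-TH at 2209 ± 580. The valine tRNA MT-TV stood at 1819 ± 300 and the leucine tRNA MT-TL2 at 1608 ± 467 CPM per kb. Within these 5, neighbours in the order differed by less than the larger of the SDs of the pair. MT-TS2 shares bases and reads with both MT-TH and MT-TL2. The other leucine tRNA, MT-TL1, had 896 ± 133 CPM per kb. Together these 6 tRNAs held 84.4% to 89.6% of all mitochondrial tRNA counts in a library.

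At the other end, the tryptophan tRNA MT-TW had 22.5 ± 5.00 CPM per kb, the serine tRNA MT-TS1 28.3 ± 11.1 and the isoleucine tRNA MT-TI 33.9 ± 5.59. The span from MT-TE to MT-TW was 162-fold. The lowest count behind any of these values was 283, for MT-TW in a single library, and the highest was 133765, for MT-TE. The remaining 13 tRNAs lay between 34.7 CPM per kb (MT-TD, aspartate) and 323 (MT-TP, proline). MT-RNR2 had 684 ± 64.5 and MT-RNR1 574 ± 52.3 CPM per kb, below the 6 leading tRNAs and above the other 16.

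**Figure D1:**
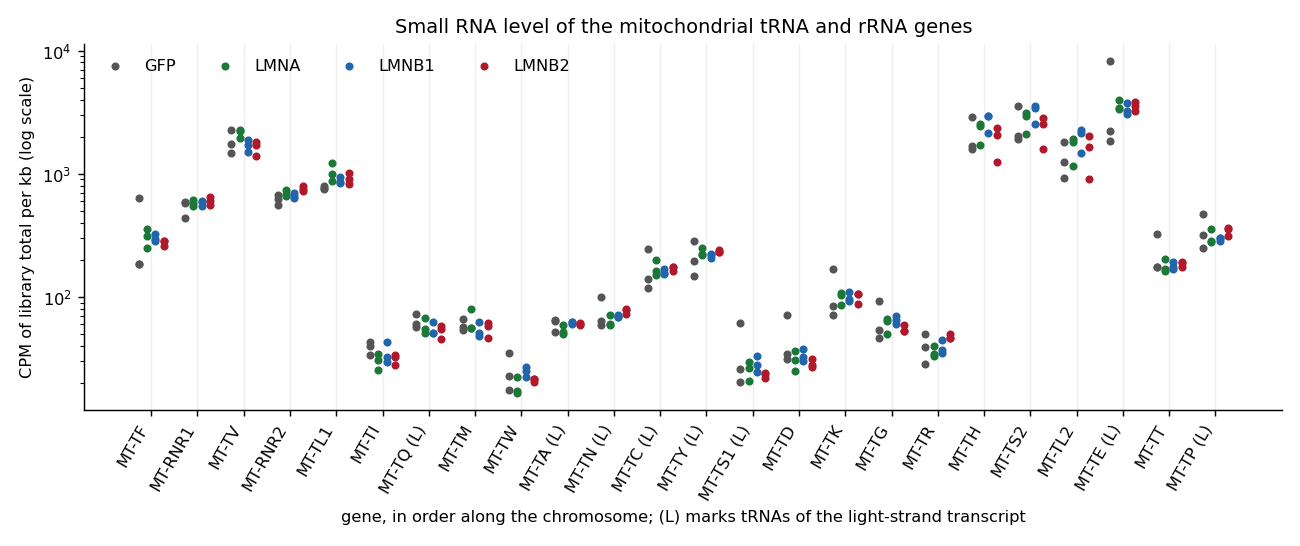
Small RNA level of the 22 mitochondrial tRNA and 2 rRNA genes (y axis, CPM of the library total per kb of interval, log scale) in order along the chromosome, with 1 point per library coloured by group. MT-TE, MT-TS2, MT-TH, MT-TV and MT-TL2 lie above the 2 rRNAs in every library, and MT-TW lies between 16.6 and 35.0.

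The share of small RNA counts on chrM was near 1% in every group. It was 0.665%, 0.775% and 1.29% in the GFP libraries, 1.02%, 0.888% and 0.900% with LMNA, 0.943%, 0.916% and 1.00% with LMNB1, and 1.03%, 0.911% and 1.05% with LMNB2. The GFP libraries alone spanned the values of all 9 lamin libraries. Group means were 0.910% ± 0.334 (SD, n = 3), 0.936% ± 0.0734, 0.953% ± 0.0432 and 0.997% ± 0.0749, and an exact permutation test over the 4 groups gave p = 0.924 (0.924 after Benjamini-Hochberg adjustment over 5 such measures). Without GFP replicate 3 the exact permutation p was 0.00974, with LMNB2 0.277 percentage points above GFP, so this measure depends on that library. Without GFP replicate 1, LMNB2 minus GFP was −0.0355 percentage points (exact permutation p = 0.907).

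The denominator mattered as well. Rows whose type includes lncRNA held 80.3% to 87.6% of small RNA counts in GFP and 78.8% to 79.7% in LMNB2. With these rows, which include MT-RNR1 (typed both rRNA and lncRNA), left out of both sides, the chrM share was 2.20% ± 0.0414 with GFP, 2.13% ± 0.103 with LMNA, 2.12% ± 0.155 with LMNB1 and 1.82% ± 0.137 with LMNB2 (n = 3 each). LMNB2 libraries (1.68% to 1.94%) then lay below GFP (2.17% to 2.25%) without overlap, the opposite direction from the share over all rows. The exact permutation p over the 4 groups was 0.0255, and over the 3 lamin groups alone it was 0.0679. When only rows with no type other than lncRNA were left out, so that MT-RNR1 stayed in, the shares were 2.39% ± 0.00450 with GFP and 2.03% ± 0.143 with LMNB2 (exact permutation p = 0.0217 over the 4 groups), an alternative added after seeing the data. With only the 24 tRNA and rRNA genes in the numerator, the share was 0.323% ± 0.0819 in GFP and 0.342% ± 0.0352 in LMNB2, and the exact permutation p was 0.919.

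For single rows, edgeR's quasi-likelihood test, adjusted by Benjamini-Hochberg over 33893 rows, called 1 chrM row under 0.05. For LMNA against GFP 0 of 46 chrM rows were called, where the background was 0% of all rows tested, and for LMNB1 0 of 46 against a background of 0.0384%. For LMNB2 it was 1 of 46, no more than the background of 2.66%. In the joint test, which asks whether the 3 lamin groups differ from each other, it was 0 of 46 against 1.93%. At an unadjusted p under 0.05 the members numbered 1 (background 5.46%), 3 (5.51%) and 8 (19.9%) for LMNA, LMNB1 and LMNB2, and 0 in the joint test (16%). DESeq2 called 0, 0 and 2 members for LMNA, LMNB1 and LMNB2, against backgrounds of 0.0708%, 0.062% and 2.81%. Without GFP replicate 3, edgeR called 1 member for LMNA (MT-TW, background 0.842%) and 4 for LMNB2 (MT-TI, MT-TQ, MT-TW and MT-TD, background 5.82%). The 3 comparisons share the GFP libraries.

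The share of chrM rows called in LMNB2 was no higher than that of all rows tested. The row called in LMNB2 was MT-TD, the aspartate tRNA gene (chrM:7493-7610, heavy-strand transcript, between the COX1 and COX2 coding genes). Its normalised level was 5.90, 4.50 and 6.44 CPM in GFP and 3.20, 3.02 and 2.98 CPM in LMNB2. LMNA libraries had 4.26, 3.08 and 4.15 CPM, and LMNB1 libraries 3.39, 3.62 and 4.30. Every lamin library lay below every GFP library. Fewer cells with a transcript and less RNA per cell cannot be told apart in such bulk libraries. MT-TD fell by 0.87 on the log2 scale in LMNB2 (SE 0.20, adjusted p = 0.0340, edgeR). In LMNA the log2 fold change was −0.55 ± 0.20 (adjusted p = 0.895) and in LMNB1 −0.58 ± 0.20 (adjusted p = 0.777), neither past the threshold. The call in LMNB2 was lost without any 1 of the LMNB1 or LMNB2 libraries, with a log2 fold change of −0.71 to −1.01 and an adjusted p of 0.0194 to 0.156 when each of the 12 libraries was left out in turn.

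MT-TS1 (chrM:7421-7539), the light-strand serine tRNA whose interval shares 47 bases with MT-TD, was also lower in LMNB2 than in GFP without overlap, at 3.85, 3.44 and 5.59 CPM in GFP and 2.47, 2.58 and 2.44 CPM in LMNB2. The LMNA libraries (3.47, 2.61 and 3.57 CPM) and LMNB1 libraries (2.78, 3.13 and 3.82 CPM) overlapped GFP. The log2 fold change was −0.78 ± 0.21 with an adjusted p of 0.0584 (edgeR), which missed the threshold. DESeq2, the fit without a count filter and the fit without GFP replicate 1 called it together with MT-TD. Without GFP replicate 3 its log2 fold change was −0.50 and its adjusted p 0.0984 (edgeR).

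**Figure D2:**
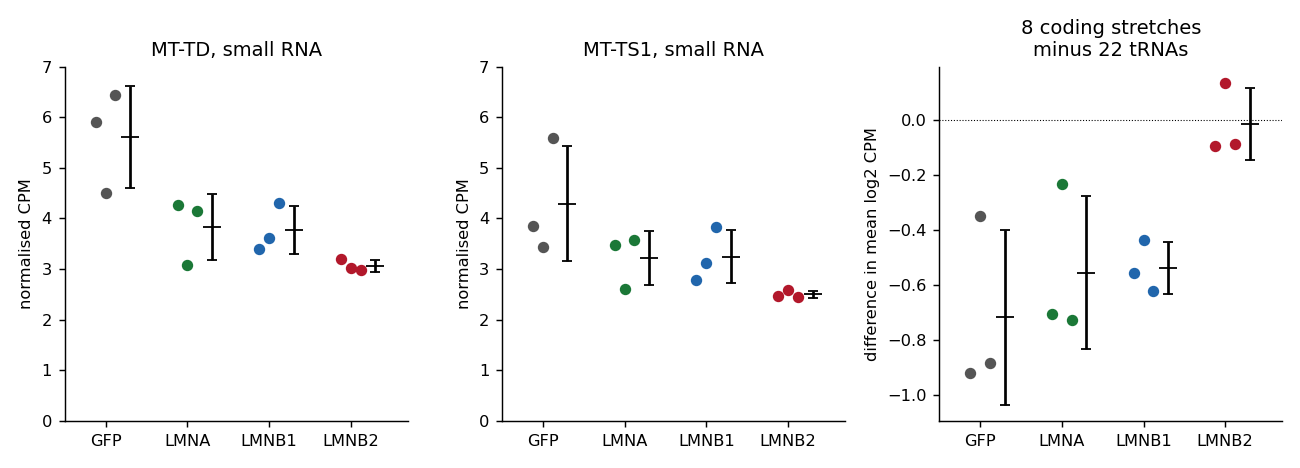
Normalised small RNA level (CPM) of MT-TD and MT-TS1 in each library, and the mean log2 CPM of 8 rows over protein-coding stretches minus that of the 22 tRNAs; points are libraries, bars are mean ± SD (n = 3). MT-TD is 2.98 to 3.20 CPM in LMNB2 and 4.50 to 6.44 in GFP, and the difference of the 2 lists is highest in LMNB2. The list of 8 rows was formed after these values were seen.

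As a list, the mitochondrial tRNAs had a median log2 fold change of −0.11 with LMNA, −0.28 with LMNB1 and −0.36 with LMNB2, beside −0.05, −0.05 and −0.04 over all rows tested. Fold changes were below 0 for 14, 19 and 21 of the 22 tRNAs, where 0, 0 and 1 passed the test. Of all 33893 rows tested, 19278, 18963 and 18034 were below 0. The median remained below 0 in each contrast under all 8 alternative settings and in all 12 fits that left out a library. The highest and lowest tRNAs, by fold change, were MT-TL1 (0.28) and MT-TW (−0.57) with LMNA, MT-TL2 (0.36) and MT-TD (−0.58) with LMNB1, and MT-TR (0.03) and MT-TD (−0.87) with LMNB2. Of these 6 values only the last passed the test. MT-TW in LMNA depended on GFP replicate 3: without it the log2 fold change was −0.85 with an adjusted p of 0.0212 (edgeR).

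The 14 heavy-strand tRNAs had medians of −0.06, −0.23 and −0.41 with LMNA, LMNB1 and LMNB2, and the 8 light-strand tRNAs −0.21, −0.30 and −0.28. The log2 ratio of summed heavy- to light-strand tRNA counts was 1.51, 1.45 and 0.327 in the GFP libraries. Its group means were 1.10 ± 0.668 with GFP, 1.20 ± 0.209 with LMNA, 1.38 ± 0.144 with LMNB1 and 0.967 ± 0.258 with LMNB2 (n = 3), with an exact permutation p of 0.628 over the 4 groups. LMNB2 minus GFP was −0.131, and without GFP replicate 3 it was −0.516 (exact permutation p = 0.0777). Without GFP replicate 1 it was 0.0766 (exact permutation p = 0.429). GFP replicate 3, the low one, was also the library with the most MT-TE: 754 CPM after scaling, against 419 and 244 in the other GFP libraries and 342 to 467 in the 9 lamin libraries. MT-TE and the ratio share those counts.

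For comparison, 463 of 499 nuclear tRNA rows passed the count filter, with median log2 fold changes of 0.14, 0.07 and −0.20 with LMNA, LMNB1 and LMNB2, and 3 were called, all lower with LMNB2. Of 4 nuclear rows annotated as copies of mitochondrial tRNAs 1 was tested, with log2 fold changes of 0.50, 0.13 and −0.03, none called. RMRP, the RNA of RNase MRP, had 0.21, −0.09 and 0.15, and RPPH1, the RNA of nuclear RNase P, had 0.28, 0.10 and 0.17, and none of these was called.

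The rRNAs differed between groups by less than the spread between GFP libraries. MT-RNR1 (chrM:623-1626) had 694, 640 and 455 CPM with GFP, 603, 606 and 625 with LMNA, 521, 572 and 573 with LMNB1, and 562, 515 and 568 with LMNB2. MT-RNR2 (chrM:1646-3254) had 1414, 1186 and 773 CPM with GFP, 1182, 1166 and 1199 with LMNA, 976, 1049 and 1031 with LMNB1, and 1092, 1073 and 1147 with LMNB2. GFP replicate 3 was the lowest of all 12 for both genes, so the GFP range contained every lamin library. Without it, both GFP libraries lay above all 9 lamin libraries for MT-RNR1, while 1 LMNA library lay between them for MT-RNR2. The inner large-subunit entry leaves out the ends shared with MT-TV and MT-TL1, which made up 40.8% of MT-RNR2 in GFP replicate 1. This entry had 838, 890 and 545 CPM with GFP, 774, 813 and 755 with LMNA, and 686, 773 and 714 with LMNB1. With LMNB2 it had 801, 834 and 854 CPM, so LMNB2 replicate 3 lay above GFP replicate 1. Log2 fold changes were 0.04, −0.10 and −0.12 for MT-RNR1 and 0.07, −0.14 and −0.03 for MT-RNR2 with LMNA, LMNB1 and LMNB2. Without GFP replicate 3 they were −0.059, −0.21 and −0.23 for MT-RNR1 and −0.071, −0.30 and −0.19 for MT-RNR2, again with no call (edgeR). Their signs in LMNB1 and LMNB2 turned with scaling to total counts.

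Of the counts on the 24 tRNA and rRNA genes, the rRNAs held 48.7% ± 9.68 with GFP, 49.1% ± 3.38 with LMNA, 47.8% ± 3.90 with LMNB1 and 53.6% ± 3.78 with LMNB2 (n = 3, exact permutation p = 0.637). Counts at the ends of MT-RNR2 are shared with MT-TV and MT-TL1, so this share does not cleanly divide rRNA from tRNA reads. LMNB2 minus GFP was 4.94 percentage points with all libraries and −0.152 without GFP replicate 3 (exact permutation p = 0.265). The log2 ratio of 16S to 12S counts was 0.894 ± 0.131, 0.952 ± 0.0169, 0.875 ± 0.0281 and 1.01 ± 0.0505 (exact permutation p = 0.175). Without GFP replicate 1 that p was 0.00487. With the inner 16S interval, which leaves out the ends shared with MT-TV and MT-TL1, the ratio was 0.336 ± 0.121 with GFP, 0.352 ± 0.0754 with LMNA, 0.383 ± 0.0585 with LMNB1 and 0.598 ± 0.0926 with LMNB2. LMNB2 libraries (0.511 to 0.695) then lay above those of every other group, and the exact permutation p was 0.0267. That interval was chosen after seeing the data. Only the 16S side lost its shared ends: MT-RNR1 still shared 50 bases with MT-TF and 50 with MT-TV. MT-TV had 185, 150 and 191 CPM with LMNB2, beside 562, 515 and 568 for MT-RNR1. With LMNA, MT-TV had 260, 242 and 306 CPM, beside 603, 606 and 625 for MT-RNR1. The higher ratio with LMNB2 therefore cannot be read as a difference between 16S and 12S rRNA. Whether LMNB2 stays apart without those counts was not tested.

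Rows over the protein-coding stretches had positive fold changes in LMNB2, unlike most tRNAs, though none passed the test. Among the 22 other annotated RNAs, 8 contain no whole tRNA or rRNA gene and lie mostly within genes for respiratory chain subunits, a list formed after the values had been seen. Their median log2 fold change was 0.06 with LMNA, −0.03 with LMNB1 and 0.40 with LMNB2, and all 8 were above 0 with LMNB2 (0.10 to 0.51), where 46.8% of all rows tested were. Of the 8, 1 had an unadjusted p under 0.05, against 19.9% of all rows tested. Some of the 8 overlap, as at chrM:13116-14099 and 13212-14517, so they are not separate measurements. The row with the highest value lies within ND4, a complex I subunit gene (chrM:11670-11977). It had 9.35, 11.2 and 7.71 CPM with GFP, 9.25, 12.3 and 9.30 with LMNA, 9.03, 9.62 and 9.80 with LMNB1, and 13.0, 13.7 and 13.6 with LMNB2. The LMNB2 libraries were above all 9 others, with a log2 fold change against GFP of 0.51 ± 0.20 and an adjusted p of 0.172 (edgeR).

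The row over ND1, another complex I gene (chrM:3300-4285), had 14.3, 15.5 and 11.7 CPM in GFP and 17.8, 18.1 and 18.4 in LMNB2, also without overlap, with a log2 fold change of 0.39 ± 0.19 and an adjusted p of 0.270 (edgeR). Over all 46 rows, LMNB2 and GFP libraries did not overlap for 10 rows that were higher (background 12.1%) and 7 that were lower (10.2%). In LMNB1 this held for 0 higher (4.76%) and 6 lower rows (5.29%), and in LMNA for 0 higher (4.16%) and 3 lower rows (5.34%). The lower rows of LMNB2 were MT-TQ, MT-TS1, MT-TD, MT-TG, MT-TT, MT-TP and the row over the control region next to MT-TP.

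Set against each other within a library, coding stretches and tRNAs separated LMNB2 from the other groups. The mean log2 CPM of the 8 coding stretches minus that of the 22 tRNAs was −0.92, −0.35 and −0.88 with GFP, −0.71, −0.23 and −0.73 with LMNA, −0.56, −0.44 and −0.62 with LMNB1, and −0.09, 0.14 and −0.09 with LMNB2. The LMNB2 libraries were the 3 highest of 12. Within every group the second replicate had the highest value. No test was made of this difference, since the list of coding stretches was formed on these values.

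**Figure D3:**
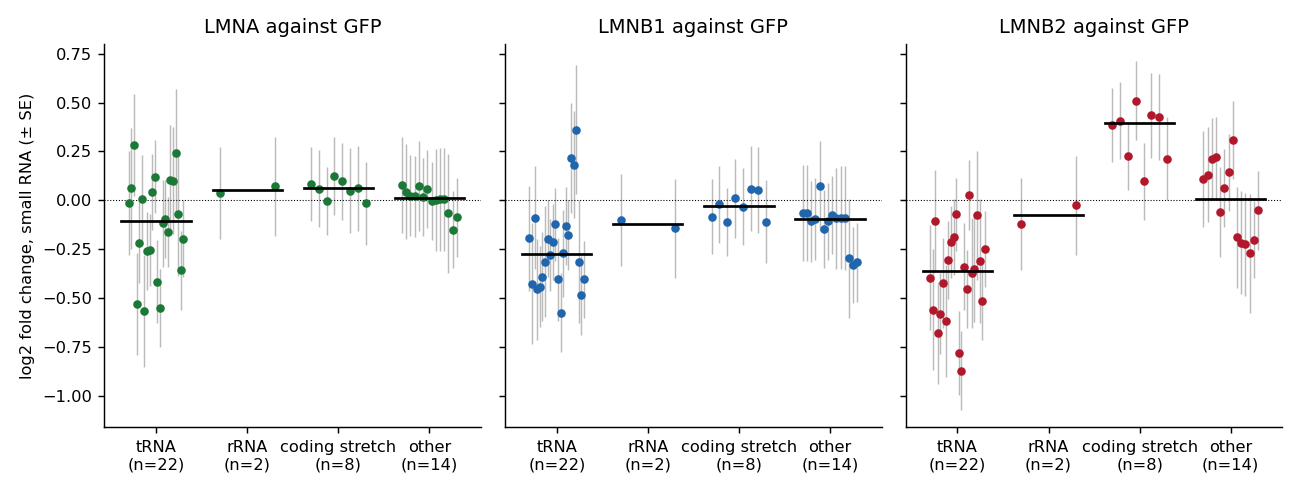
Small RNA log2 fold change against GFP (y axis, ± SE) of the 46 chrM rows, grouped into 22 tRNAs, 2 rRNAs, 8 coding stretches and 14 other rows that contain or adjoin RNA genes; horizontal lines are medians. In LMNB2 the tRNA median is −0.36 and the coding stretch median 0.40, the list of coding stretches having been formed after the values were seen.

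When the 3 lamin groups were compared with each other without GFP, 8 of 46 chrM rows were called, where the background was 12% of 32275 rows (edgeR, adjusted p under 0.05). They were MT-TV, MT-TL1, MT-TM and 5 rows with coding sequence, at chrM positions 3300-4285, 7052-10015, 8638-10014, 11670-11977 and 13116-14099. MT-TV (adjusted p = 0.00188, edgeR) had 260, 242 and 306 CPM with LMNA, 193, 167 and 216 with LMNB1, and 185, 150 and 191 with LMNB2. The LMNA libraries lay above those of both B-type lamins, while GFP spread from 158 to 423 CPM. The ND4 row had an adjusted p of 0.0142 (edgeR). The same comparison of the 3 lamin groups in the fit that also holds GFP called 0 of the 8.

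The share of ATAC counts on chrM was much larger than in small RNA and differed between groups. In both assays the chrM intervals nest and overlap, so a read can count in several of them. The percentages are therefore shares of counts and not fractions of reads. The ATAC share was 39.9%, 47.5% and 47.0% with GFP, 39.4%, 44.1% and 39.8% with LMNA, 33.9%, 32.8% and 34.1% with LMNB1, and 25.2%, 30.7% and 24.5% with LMNB2. LMNA overlapped GFP, LMNB1 lay below both, and LMNB2 lay below LMNB1, with no overlap in either case. LMNB1 and LMNB2 did overlap when rows whose type includes lncRNA were left out (38.9% to 43.5% and 35.8% to 44.8%) and when flanking windows were added (25.1% to 26.4% and 20.0% to 25.2%). Group means were 44.8% ± 4.24, 41.1% ± 2.62, 33.6% ± 0.685 and 26.8% ± 3.43 (SD, n = 3), and the exact permutation p over the 4 groups was 0.000325, or 0.00162 after adjustment over 5 measures. Against GFP alone, each pair of 3 and 3 libraries can give no two-sided exact permutation p below 0.1. The pairs gave 0.2 for LMNA, 0.1 for LMNB1 and 0.1 for LMNB2, which became 1, 0.75 and 0.75 after adjustment over 15 such pairs.

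Counts over the lamin genes moved with the share. Windows overlapping LMNA, LMNB1 and LMNB2 held 0.0361% of ATAC counts with GFP, 0.481% with LMNA, 4.92% with LMNB1 and 15.9% with LMNB2. Without those windows the chrM share was 44.8% ± 4.24, 41.3% ± 2.65, 35.3% ± 0.451 and 31.8% ± 3.22 (n = 3), and the exact permutation p was 0.00338. LMNB1 (34.8% to 35.7%) and LMNB2 (29.7% to 35.5%) then overlapped each other, and both remained below every GFP library. Relative to nuclear window counts without the lamin windows, MT-RNR1 alone had 11170, 14952 and 14740 CPM of those counts with GFP, 10939, 13229 and 10764 with LMNA, 9146, 8866 and 9338 with LMNB1, and 7257, 9070 and 7112 with LMNB2. This avoids counting a read in several nested chrM windows, and here too LMNB1 and LMNB2 overlapped and both lay below GFP. Both measures also depend on the nuclear counts. ATAC library totals also differed, at 156.0, 194.1 and 212.2 M counts with GFP and 193.2, 189.2 and 278.6 M with LMNA. They were 243.2, 280.5 and 233.3 M with LMNB1 and 273.8, 290.2 and 245.2 M with LMNB2. The number of mitochondrial genomes per cell, their accessibility, the library total and a difference in nuclear counts cannot be told apart in these libraries. No cause was tested.

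**Figure D4:**
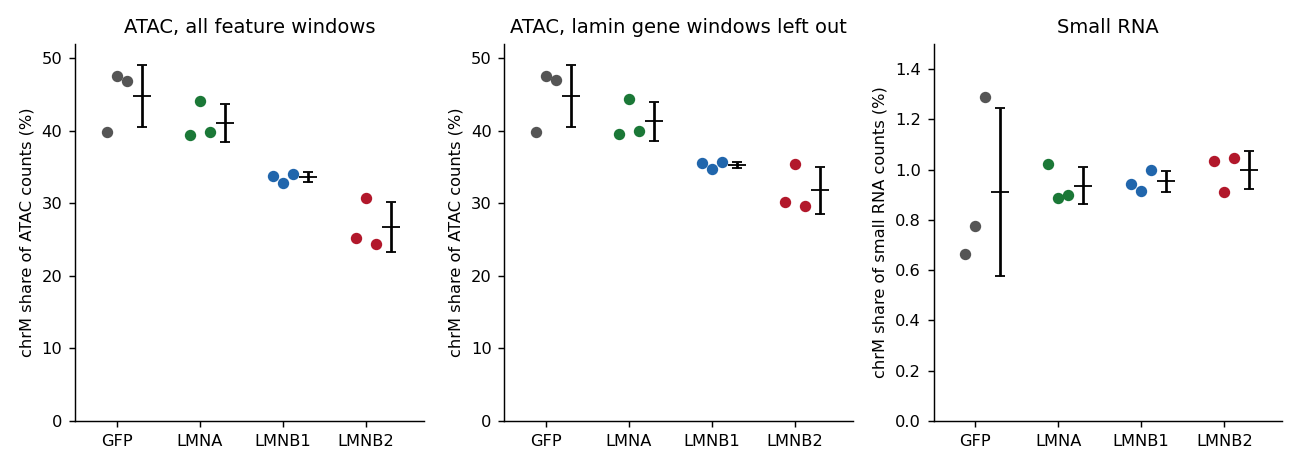
Share of counts on chrM (y axis, percent) in each library for ATAC feature windows, for ATAC without windows over the lamin genes, and for small RNA; points are libraries and bars mean ± SD (n = 3). The ATAC share runs from 44.8% in GFP to 26.8% in LMNB2, and from 44.8% to 31.8% without the lamin windows, while the small RNA share of GFP libraries spans that of the lamin groups.

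All 46 chrM windows had similar fold changes in a given comparison. After scaling, MT-RNR1 (window chrM:498-1751) had 6607, 8927 and 8561 CPM with GFP, 6352, 7879 and 6308 with LMNA, 5341, 5147 and 5277 with LMNB1, and 4120, 5137 and 4044 with LMNB2. For the 3 lamins in that order its log2 fold changes were −0.23 ± 0.14, −0.61 ± 0.14 and −0.86 ± 0.14 (± SE). MT-TD (window chrM:7368-7735) had 1548, 2303 and 2157 CPM in GFP and 950, 1303 and 918 in LMNB2.

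Across the 46 windows the median log2 fold change was −0.23 with LMNA, −0.62 with LMNB1 and −0.86 with LMNB2, with ranges of −0.30 to −0.19, −0.68 to −0.60 and −0.95 to −0.84. The tRNA windows had medians of −0.25, −0.64 and −0.89 and the rRNA windows −0.23, −0.61 and −0.86. Every one of the 46 windows was lower without overlap with LMNB1 (background 3.84%) and LMNB2 (4.72%), and 0 with LMNA (4.74%). The windows overlap and share reads, so the count of 46 carries little more than the share itself. Scaling to the total chrM count sets the medians near 0, and the 46 fold changes then ran from −0.08 to 0.02 with LMNA, −0.05 to 0.01 with LMNB1 and −0.09 to 0.03 with LMNB2.

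Whether these windows were called depended on the test. edgeR's quasi-likelihood test over 163786 windows called 0 of 46 with LMNA (background 0.000611%), LMNB1 (0.00305%), LMNB2 (0.00244%) and the joint test (0.0916%), with adjusted p-values of 0.979 to 0.987, 0.978 and 0.715 to 0.827 in the 3 contrasts. At an unadjusted p under 0.05 it held 0 members with LMNA (5.19%), 46 with LMNB1 (4.78%), 46 with LMNB2 (5.72%) and 45 in the joint test (6.24%). DESeq2 called 0 with LMNA (0.036%), 41 with LMNB1 (0.0379%), 46 with LMNB2 (0.0708%) and 29 in the joint test (0.455%), all lower in the 2 B-type lamins. Scaling to total counts alone in edgeR called 0, 42 and 45 (backgrounds 0.112%, 0.0672% and 0.0604%) and 43 in the joint test (0.058%).

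**Figure D5:**
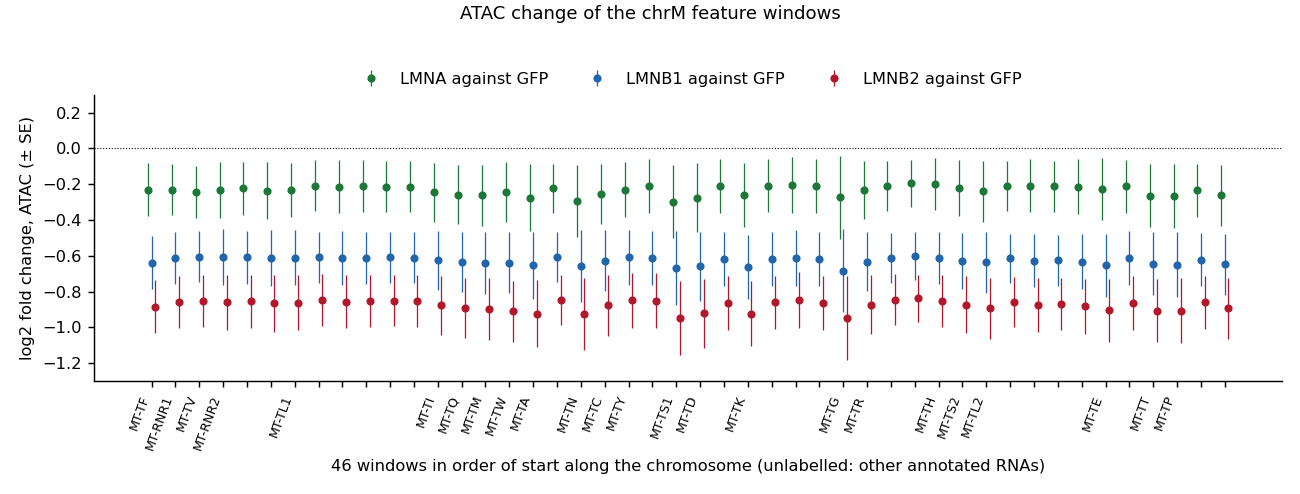
ATAC log2 fold change against GFP (y axis, ± SE) of the 46 chrM windows in order along the chromosome for LMNA, LMNB1 and LMNB2. Values stay within −0.30 to −0.19, −0.68 to −0.60 and −0.95 to −0.84, with no window standing apart.

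The profile of ATAC counts along the chromosome kept its form while its level differed. In GFP, CPM per kb ran from 4045 ± 558 over MT-TN, the asparagine tRNA, to 7754 ± 735 over MT-TF, the phenylalanine tRNA next to the control region (n = 3). In LMNB2 the same 2 windows were again lowest and highest, at 2317 ± 432 and 4567 ± 596, and they were with LMNA and LMNB1 too. The span between windows was far narrower than in small RNA. Among 83 flanking windows of 500 bases on chrM, the median was 6237 CPM per kb of window with GFP, 5716 with LMNA, 4697 with LMNB1 and 3756 with LMNB2, the same order as the feature windows.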

How the data were processed

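Small RNA and ATAC libraries were analysed from 2 deposited tables of raw counts, which hold whole-number counts per annotated feature and per window, as the authors deposited them. The genome build was GRCh38, per the submitters' processing notes. The aligner, counting tool, use of strand, handling of duplicates and any ATAC read shift are not given in the sources used here. Starts were converted to count from 1.

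Counts were filtered with edgeR's filterByExpr and scaled by TMM, and each assay was fitted over all 12 libraries with edgeR 4.0.16 (quasi-likelihood, robust) in R 4.3.3, with limma 3.58.1. Scaled CPM are called normalised; shares and CPM per kb use library totals. Adjusted p-values are Benjamini-Hochberg over all rows tested, called under 0.05. DESeq2 1.42.0 was an alternative. Shares and ratios were compared by exact two-sided permutation over libraries, using the between-group sum of squares over 369600 assignments of 4 groups. On simulated counts for LMNB2 against GFP, the small RNA fit over 32282 rows recovered 47% of changes of log2 1 and 100% of log2 2. The ATAC fit over 162069 windows recovered 100% of both. The simulation gave all rows of an assay 1 common spread and planted changes only in rows above a count limit. These rates therefore do not say what the fits would find among the chrM rows, whose spread can differ.

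Earlier results of these data were known when members and lists were chosen, although the rule for members used only the chromosome field. All 24 tRNA and rRNA genes are accounted for; those named are the rRNAs, called rows, the tRNAs with the highest and lowest fold change per contrast, and the 5 with most and 3 with fewest counts per kb. MT-TF, MT-TM, MT-TN, MT-TP, the other annotated RNAs and the short lists of rows whose libraries did not overlap were named after their values were seen. The batch label is constant within an assay. All replicates differed beyond counting noise. No chrM sequence was used here.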

Additional observations from a re-analysis of the deposited data

Results flagged for a closer look

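The chrM share of ATAC counts differed among the 3 lamin groups themselves, by an exact permutation test over their 9 libraries (p = 0.00357, the share being 41.1% in LMNA, 33.6% in LMNB1 and 26.8% in LMNB2). This test was added after seeing the data. With rows whose type includes lncRNA left out the same test gave an exact permutation p of 0.0179, but LMNB1 (41.4%) and LMNB2 (39.2%) then overlapped. Counts over the lamin genes moved with the groups, at 0.481%, 4.92% and 15.9% of ATAC counts, and without those windows the shares were 41.3%, 35.3% and 31.8% with LMNB1 and LMNB2 overlapping (exact permutation p = 0.00714 over the 9 libraries).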

How the results depend on the processing

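The ATAC chrM share kept its direction and its exact permutation p under 0.05 in every alternative, with LMNB2 minus GFP from −23.5 to −13.0 percentage points and −20.4 to −16.6 when a library was left out. Counts of called rows moved more. For small RNA in LMNB2, 2 rows were called with DESeq2 (2.81% of all rows), 2 without a count filter (1.16%), 0 with only the libraries compared (0.0742%) and 0 with total counts (0.832%), and 0 to 4 when a library was left out (0.138% to 5.82%), where the fits with 0 had at most 1.55% of all rows called. For LMNA that range was 0 to 1, the 1 being without GFP replicate 3 (0.842%). The joint small RNA test of differences among the lamins called 1 row with DESeq2 (2.52%) and 8 when GFP was left out of the fit (12%). In ATAC, DESeq2 called 41, 46 and 29 windows for LMNB1, LMNB2 and the joint test, and total counts 42, 45 and 43. The LMNB2 minus GFP difference in the small RNA chrM share turned to −0.378 points without rows whose type includes lncRNA, to −0.357 without rows typed only as lncRNA, and ran from −0.0355 to 0.277 over left-out libraries. Those of the rRNA share ran from −0.152 to 9.47 points, of the heavy to light log2 ratio from −0.516 to 0.0766, and of the 16S to 12S log2 ratio from 0.0514 to 0.183, with 0.262 for the inner 16S interval. Signs of uncalled rRNA fold changes turned too. In small RNA, total counts gave 0.12 and 0.18 for MT-RNR1 and 0.11 and 0.30 for MT-RNR2 in LMNB1 and LMNB2, and scaling to the chrM count gave −0.0066 for MT-RNR1 in LMNA and 0.070 for MT-RNR2 in LMNB2. Left-out libraries gave MT-RNR1 −0.059 to 0.14 in LMNA and −0.21 to 0.015 in LMNB1, and MT-RNR2 −0.071 to 0.26, −0.30 to 0.050 and −0.19 to 0.16 in LMNA, LMNB1 and LMNB2. In ATAC, scaling to the chrM count gave 0.0031 and 0.0038 for MT-RNR1 and 0.0090 and 0.00057 for MT-RNR2 in LMNB1 and LMNB2. The cause of these changes was not tested.

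Replicate numbers were not taken as pairs: no label says what a number shares, and same-numbered libraries had deviations correlated above 0.1 in 10 of 18 pairs in small RNA and 7 of 18 in ATAC, not in all. Still, 8 of 12 and 7 of 12 libraries correlated best with their own number, a hint from the data that some same-numbered libraries share variation. With the replicate block, small RNA calls on chrM remained at 0, 0 and 1 (0 in the joint test), ATAC calls at 0 in each, and the ATAC share had an exact permutation p of 0.00174. The smallest tRNA count was 283, and with 3 libraries a group the replicate spread limits the small RNA comparisons.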
